A study of Mus musculus with 24 samples.

Results

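Accessible chromatin of skin cells 7 and 80 days after a full-thickness wound was compared region by region. The peaks of both deposited lists were merged where they overlapped by at least 1 bp, and each of the 45049 resulting regions was classed as held by the day 7 list alone, by the day 80 list alone or by both. All 8 lists of the series merge into 63188 regions. The assay was ATAC-seq, where a transposase inserts adapters into DNA not packed by nucleosomes, so that a peak marks an open stretch such as a promoter or an enhancer.

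Both groups were labelled as wound-responsive progeny of epidermal stem cells, sorted from skin of Sox9-CreER/R26-YFP mice of a CD1 x C57BL/6J cross. Day 7 had 3 samples and day 80 had 2, or 5 of the 24 samples of the series, and each group was deposited as a single peak list. The 6 other lists came from Krt19-CreER/R26-YFP mice of the same cross: unwounded epidermal stem cells at day 0 and day 80, unwounded hair follicle stem cells at day 0, and progeny of hair follicle stem cells at days 3, 7 and 80 after a partial-thickness wound. These alleles express the reporter after Cre activation in cells that use the Sox9 or the Krt19 promoter, Sox9 being a transcription factor of hair follicle stem cells. The sources used here do not state how cells of the full-thickness wound were assigned to the epidermis, which gates the sort used, or the age, sex and number of animals behind a sample. Genotype separates the full-wound lists from all 6 others and does not separate day 7 from day 80.

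A full-thickness wound removes epidermis, dermis and the hair follicles in them, and stem cells of the surrounding skin migrate in to rebuild the barrier. At the edge of such a wound, keratinocytes loosen their anchorage, take up a migratory integrin and protease programme, make alarm cytokines and use stress factors of the AP-1 family. After closure, the new epidermis returns to a cycle of basal renewal and upward differentiation, and some of the chromatin opened during repair is known to stay open.

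With 1 list per group, no difference between the days has a replicate check, and no p-value is given. Absence from a list says that no peak passed the authors' threshold, not that the chromatin was closed. The day 7 list held 37214 peaks with a median width of 921 bp, and its lowest −log10 p was 32.24. The day 80 list held 33573 peaks with a median width of 460 bp and a lowest −log10 p of 7.98. Width and threshold thus moved together with the day, and their part in the results below was not tested.

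The merged regions divided into 12216 held at day 7 alone (27.1%), 7836 held at day 80 alone (17.4%) and 24997 shared (55.5%). The shared regions made up 67.2% of the day 7 list and 76.1% of the day 80 list. A cut of both lists at a common lowest −log10 p, that of the day 7 list, took out day 80 peaks only. With it, the regions of day 80 alone numbered 183 in place of 7836 and those of day 7 alone 29914. The 1 bp rule decided few of them: a peak of the other list lay within 500 bp of 92 of the day 7 alone and 94 of the day 80 alone regions, and the smallest overlap in a shared region was 106 bp.

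Promoters lay mostly in the shared class. A transcription start site was within 1 kb of 30.1% of the shared regions, 6.71% of the day 7 alone and 5.60% of the day 80 alone regions. The median distance to a start site was 17183.5 bp for shared regions, 31733.5 bp for day 7 alone and 47757 bp for day 80 alone. The regions of 1 day alone lay chiefly away from start sites. A gene body was overlapped by 54.5% of the day 7 alone, 51.3% of the day 80 alone and 67.2% of the shared regions.

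The classes differed in which other cells shared them, a readout that the class rule did not use. Of the day 7 alone regions, 59.6% were held by the day 3 list of the partial-thickness wound (95% Clopper-Pearson interval, which covers counting error only, here and below: 58.7% to 60.4%) and 13.6% by the unwounded epidermis of day 80 (13.0% to 14.2%). Of the day 80 alone regions, 21.7% were held by the partial wound of day 3 (20.8% to 22.6%) and 63.4% by the unwounded epidermis of day 80 (62.3% to 64.5%). The day 0 epidermis gave nearly the same shares as that of day 80, 12.5% and 62.0%. The partial wound moved with time: its day 7 list held 45.6% of the day 7 alone and 31.5% of the day 80 alone regions, and its day 80 list 23.0% and 60.2%. The hair follicle list held 15.7% and 28.2%. Shared regions were found in every list at 66.3% to 91.6%.

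**Figure D1:**
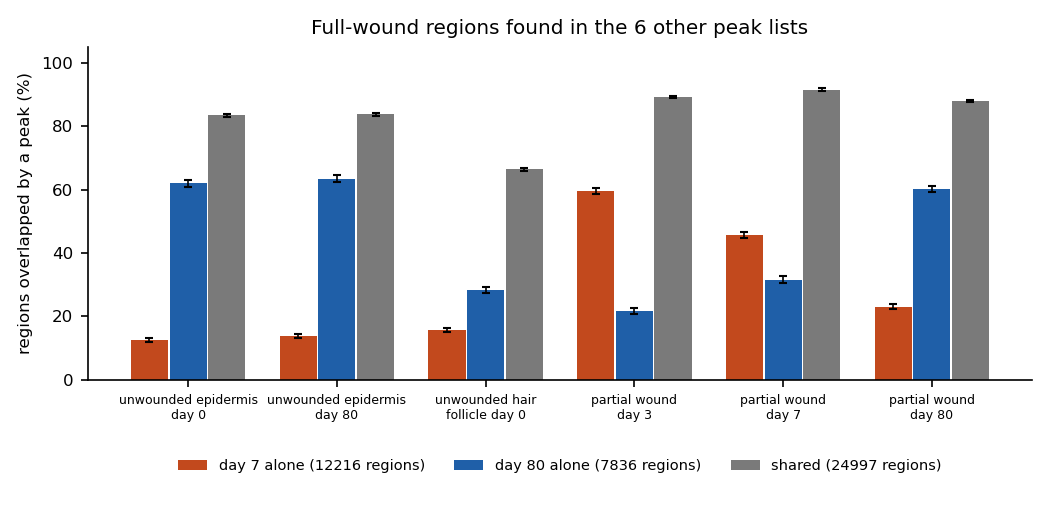
Percent of the regions of each class (bars; day 7 alone, day 80 alone, shared) overlapped by a peak of each of the 6 other lists (horizontal axis), with exact 95% intervals. The day 7 alone bar is above the day 80 alone bar in the partial-wound lists of days 3 and 7 and below it in the 4 others.

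Some of the lists that resembled each other also had like thresholds. The lowest −log10 p was 39.7 and 40.19 in the partial-wound lists of days 3 and 7, against 13.52 and 7.86 in the epidermal lists of days 0 and 80, 17.3 in that of the hair follicle and 21.04 for the partial wound of day 80. The last of these held 60.2% of the day 80 alone regions and the hair follicle list 28.2%. These lists also differ in day and wounding, and the part of the threshold was not tested. With the planned cuts of both lists the contrast was smaller at the epidermis: with the upper 50% of each list by score and with the common lowest −log10 p, the epidermis of day 80 held 51.0% and 51.5% of the regions then held at day 7 alone, and 90.8% and 95.1% of those at day 80 alone. The partial wound of day 3 held 92.2% and 75.1%, and 60.9% and 30.1%. Under either cut, a region held at day 7 alone can have a deposited day 80 peak below the cut. In a setting added after seeing the data, regions held alone were limited to those with a peak in the upper 50% of their own list, against the whole other list. The partial wound of day 3 held 86.5% of these 2317 day 7 alone regions and 27.3% of the 1403 day 80 alone regions, while the epidermis of day 80 held 16.3% and 90.0%.

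Peak strength and class were tied. By deciles of peak score, the share of day 7 regions also found at day 80 went from 33.3% in the lowest to 99.0% in the highest decile, and the share of day 80 regions also found at day 7 from 43.2% to 99.2%. The highest decile left only 39 day 7 alone and 25 day 80 alone regions. Over the same deciles the share of day 7 alone regions in the unwounded epidermis stayed between 10.3% and 17.6%, and the share of day 80 alone regions in that list went from 41.1% to 96.0%.

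**Figure D2:**
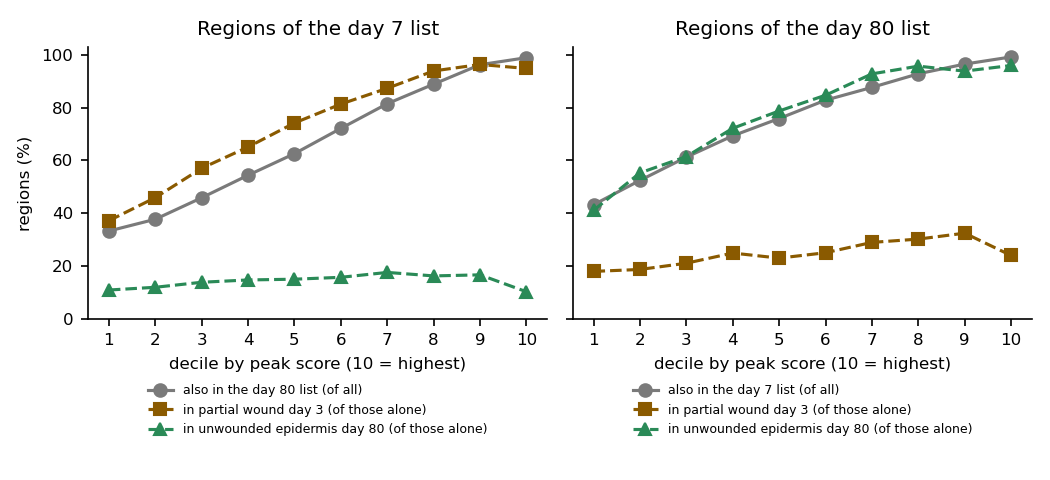
Percent of regions (vertical axis) by decile of peak score within the day 7 list (left) and the day 80 list (right). Circles give the share found in the other full-wound list; squares and triangles give, of the regions held alone, the share found in the partial wound of day 3 and in the unwounded epidermis of day 80. Overlap between the 2 days passes 98% in the top decile of each list, while the day 7 alone regions stay below 18% in unwounded epidermis.

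Regions held by both full-wound lists and by no unwounded list were a small class. No list of unwounded skin came from the Sox9-CreER mice, so the state before this wound is not known. Of the 24997 shared regions, 1957 (7.83%) were in none of the 3 unwounded lists, and 1596 of these were held by an early partial-wound list (day 3 or day 7). The partial wound of day 80 held 723 of the 1957. Of the day 7 alone regions, 72.7% were in no unwounded list, and of the day 80 alone regions 22.4%. Over all genes, 7.41% of shared regions were of this kind. The share was 12.9% for axon guidance (18 of 139), 11.3% for proliferation (7 of 62), and 11.1% for inflammation (15 of 135). The hypoxia list had 8 of 73 and the endothelial list 7 of 14. Of the 15 at inflammation genes, 7 lay at chemokine or cytokine genes and 8 at other members such as Nfkb1 and Relb. Examples are the chemokine gene Ccl20 (chr1:83119750-83120487, 583 bp from the gene; fold enrichment over background, the authors' value, 8.08 at day 7 and 5.22 at day 80), the cytokine gene Il20 (chr1:130902226-130903036, 3949 bp away; 14.0 and 14.4), the chemokine gene Ccl2 (chr11:82014993-82015633, 19944 bp away; 7.79 and 12.9) and, inside the gene, the DNA sensor Aim2 (chr1:173429552-173430292; 9.18 and 8.90). All 4 of these regions were held by both early partial-wound lists, and those of Ccl20, Il20 and Ccl2 also by the partial wound of day 80. These genes were named after their values had been seen. The BMP and TGF-beta genes had 2 such regions among 91 shared (2.20%).

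Each region went to its closest protein-coding gene up to 50 kb away, at a distance of 0 inside or over a gene. This placed 39012 of the 45049. Of 13928 genes with a region, 4922 (35.3%) had fewer at day 80 than at day 7, 2465 (17.7%) had more and 6541 had equal numbers. The median difference was 0. The gene counts below can be set beside these shares only loosely, because lists with more regions per gene have fewer equal counts. EGF receptor signalling, for instance, had 126 regions at 20 genes, against 39012 at 13928 over all genes. The class shares of all regions at genes, 27.0% for day 7 alone and 15.9% for day 80 alone, are given beside some lists.

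Genes of the wound epithelium, the migratory sheet at the wound edge, held more regions at day 7 in 17 of the 28 members with a region and in none at day 80, with 11 equal and a median difference of −1. This is 60.7% beside 35.3% over all genes. Of their 114 regions, 44 (38.6%) were held at day 7 alone and 9 (7.89%) at day 80 alone, beside 27.0% and 15.9% over all genes. The partial wound of day 3 held 29 of the 44 (65.9%, beside 59.1% over all genes). The unwounded epidermis of day 80 held 8 (18.2%, beside 14.0%).

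Plau, the urokinase protease that frees migrating cells from fibrin, had 6 regions at day 7 and 1 at day 80. The shared region overlapped the gene (chr14:20836040-20837718) and was in all 8 lists. Of the 5 held at day 7 alone, 2 were in each unwounded epidermal list, 1 in that of the hair follicle, 4 in the partial wound of day 3 and 3 in that of day 80. The one at chr14:20863510-20864396, 20122 bp beyond the gene, had a fold enrichment of 9.39 and was held by both early partial-wound lists and by no unwounded list. Itga5, the fibronectin receptor chain that keratinocytes use to crawl, had 5 and 2. Its 3 day 7 alone regions, with fold enrichments of 7.40, 8.99 and 6.95, were all held by the partial wound of day 3 and by none of the 3 unwounded lists nor the partial wound of day 80. Epha2, an ephrin receptor of the epithelium, had 6 and 3, and Cd44, the hyaluronan receptor, 13 and 8. The stress keratins Krt16 and Krt17 had 1 region at both days, and Krt6a 2 and 1.

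Inflammation and cytokine genes were lower at day 80 in 17 of 38, higher in 12 and equal in 9. Il1a, an alarm cytokine released by injured keratinocytes, had 6 regions at day 7 and 1 at day 80. The alarm cytokine Il33 had 13 and 7, Irf1, an interferon-responsive factor, 8 and 3, and Stat3, which relays cytokine signals, 7 and 3. Going the other way, Aim2 had 2 and 5 and Nfkbiz, a nuclear modulator of NF-kB, 6 and 8.

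AP-1 and stress factors were lower in 9 of 22 (40.9%), higher in 3 (13.6%) and equal in 10. Of their 119 regions, 28 (23.5%) were held at day 7 alone and 16 (13.4%) at day 80 alone. Over all genes these shares were 27.0% and 15.9%. Fosl1 (1 and 1) and Jun (6 and 6) had equal counts. Fos had 10 and 9, Fosl2 5 and 6, Atf3 6 and 7, and Bach1, a repressor of oxidative stress genes, 12 and 9. The heat shock gene Hspa1a had 2 regions at day 7 and none at day 80.

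Factors of epidermal fate were lower in 20 of 32 genes (62.5%), higher in 4 and equal in 8. Of their 229 regions, 74 (32.3%) were held at day 7 alone, beside 27.0% over all genes. The partial wound of day 3 held 45 of the 74 (60.8%), near the 59.1% over all genes. Trp63, the master factor of stratified epithelia, had 14 and 6 regions. All 6 shared regions were also held by the unwounded epidermis of day 80, as were 4 of the 8 held at day 7 alone. The unwounded epidermis of day 0 held 2 of the 6 and 0 of the 8. Grhl2, a factor of epithelial junctions, had 17 and 8, Runx2 14 and 7, and Tead1, which binds DNA for the Yap pathway, 12 and 7. Grhl3, a factor of barrier formation and repair, had 5 and 9. Klf5 (3 and 3) and Gata3 (5 and 5) had equal counts.

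Genes of basal anchorage were lower in 13 of 24, higher in 5 and equal in 6. The laminin chain Lama3 had 13 and 6 and the hemidesmosome linker Dst 15 and 10. The basal keratin Krt14 had 1 and 3 and its partner Krt5 had 1 at both days. Itga6, the hemidesmosome integrin, had 6 and 7. Terminal differentiation genes were lower in 13 of 24 and higher in 5, with the crosslinking enzyme Tgm3 at 12 and 8, the ceramide synthase Cers3 at 9 and 5 and the suprabasal keratin Krt10 at 1 and 3.

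**Figure D3:**
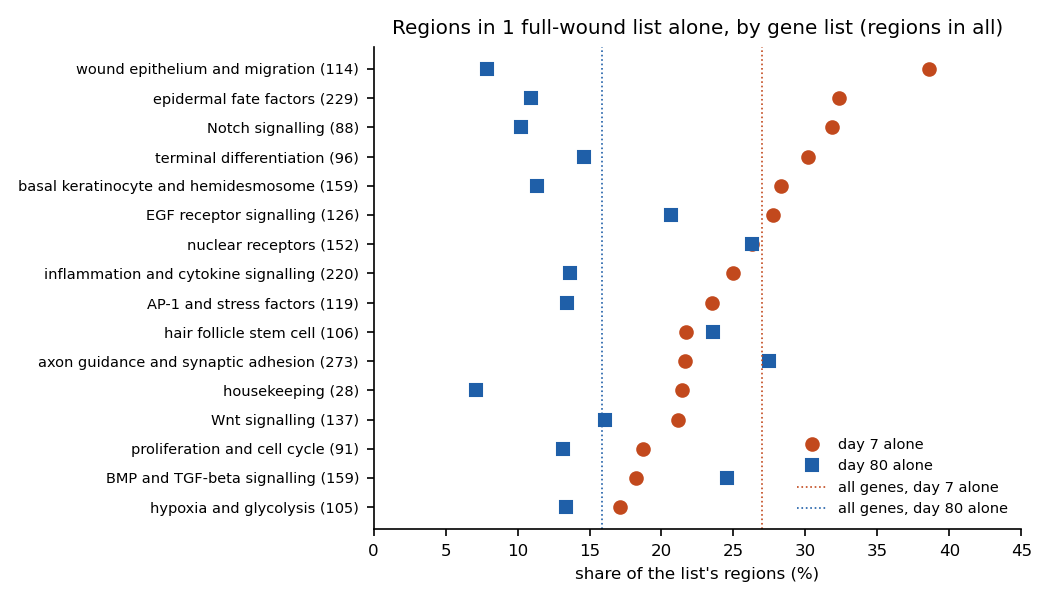
Share of the regions of 16 gene lists (the 6 lists of other cell types are not drawn) held at day 7 alone (circles) and at day 80 alone (squares), with the number of regions in parentheses and dotted lines at the shares over all genes (27.0% and 15.9%). Of the lists drawn, wound epithelium has the highest day 7 alone share (38.6%) and axon guidance the highest day 80 alone share (27.5%).

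Notch genes, whose receptors start differentiation when a neighbouring cell presents a ligand, were lower in 7 of 17, higher in 4 and equal in 6. The receptors Notch1 and Notch2 had 4 and 1, and 9 and 5, and the coactivator Maml3 19 and 12. Lfng, which glycosylates the receptors, had 1 and 3. All 3 day 7 alone regions of Notch1 were held by the partial wound of day 3 and by neither unwounded epidermal list.

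In EGF receptor signalling, which drives keratinocyte migration and growth, 12 of 20 genes were lower, 5 higher and 3 equal. Of its 126 regions, 35 (27.8%) were held at day 7 alone and 26 (20.6%) at day 80 alone. Over all genes these shares were 27.0% and 15.9%. The ligands Hbegf and Tgfa had 3 and 1, and 6 and 4, the receptor Egfr 15 and 13, and the feedback inhibitor Errfi1 8 and 4. Of other inhibitors in the list, Lrig3 had 4 and 7 and Spred2 8 and 11, Spred1 had 1 region more at day 80, and Lrig1, Spry2, Dusp4 and Dusp6 had 1 fewer each. The last 5 were named after their values were seen.

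BMP and TGF-beta genes held more day 80 alone (39 of 159 regions, 24.5%) than day 7 alone regions (29, 18.2%), the reverse of all genes, although 10 of 29 genes were lower, 9 higher and 10 equal. The day 80 alone regions gathered at a few members. The ligand Tgfb2, which restrains keratinocyte growth and supports hair follicle cycling, had 3 regions at day 7 and 9 at day 80. Of its 6 day 80 alone regions, 4 were held by the day 0 epidermis and by the partial wound of day 80, none by the partial wound of day 3 or day 7, and the strongest, inside the gene at chr1:186662695-186663299, had a fold enrichment of 10.5. The receptors Tgfbr2 and Tgfbr3 had 6 and 11, and 8 and 12. Bmp4, a ligand that holds hair follicle stem cells at rest, had 2 and 5, and all 3 of its day 80 alone regions were in both unwounded epidermal lists and in the partial wound of day 80 and in neither early partial-wound list. The receptor Acvr1 (8 and 5), the ligand Bmp7 (8 and 6) and the signal carrier Smad3 (12 and 10) had fewer. Over the whole list, 25 of the 39 day 80 alone regions (64.1%) were in the unwounded epidermis of day 80, near the 62.0% over all genes. The partial wound of day 80 held 27 of the 39, beside 3694 of 6188 over all genes. The partial wound of day 3 held 4 (10.3%), beside 22.1% over all genes.

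**Figure D4:**
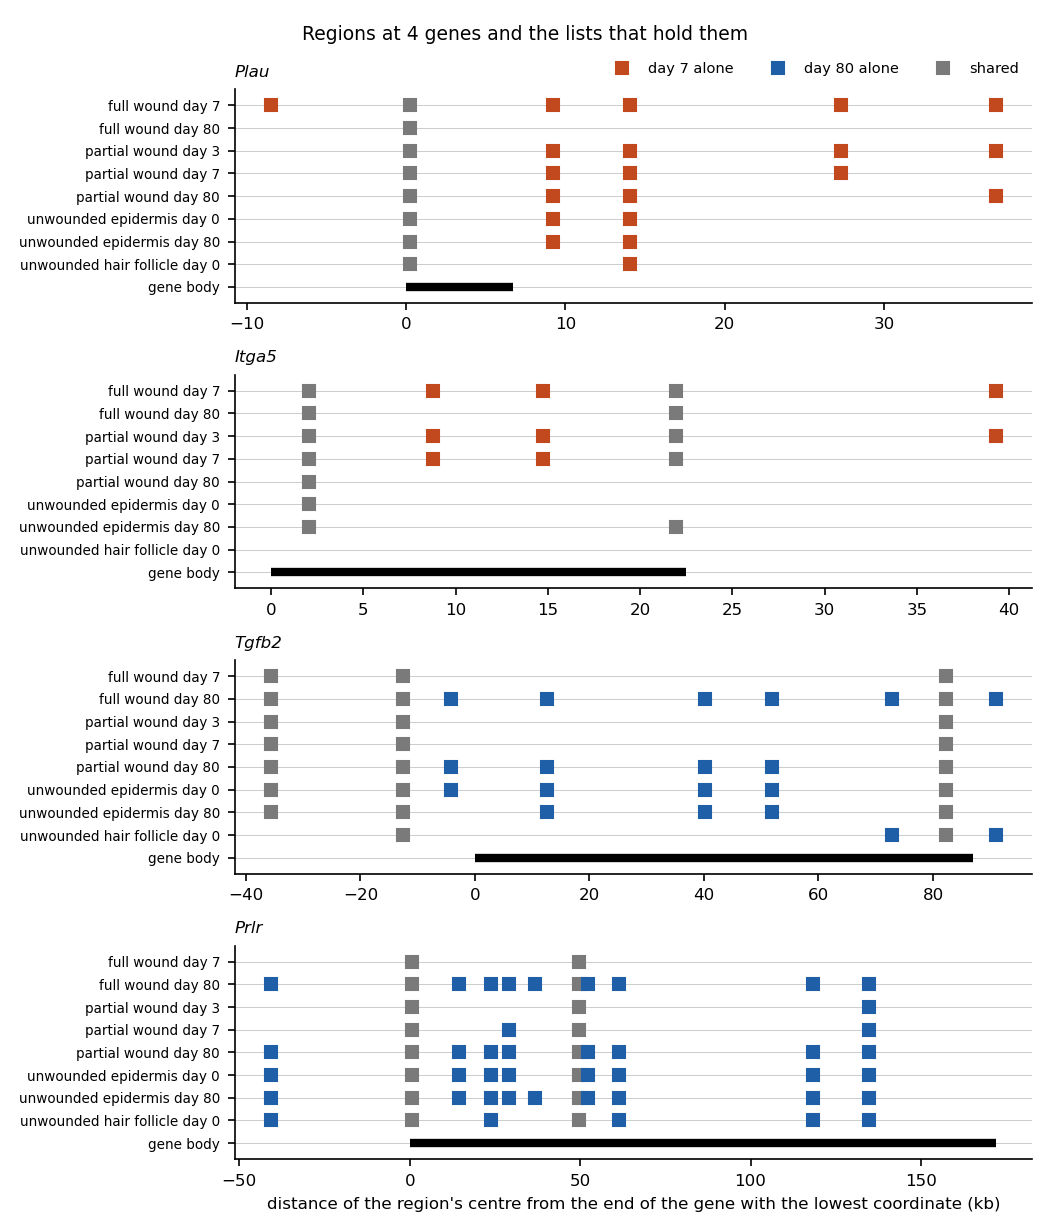
Centres of the regions at Plau, Itga5, Tgfb2 and Prlr, as distance in kb from the end of the gene with the lowest coordinate, on 1 row for each of the 8 lists; the black bar is the gene. The 5 regions of day 7 alone at Plau and the 3 at Itga5 are missing from the day 80 row, and the 6 of day 80 alone at Tgfb2 are missing from the day 7 row and from the rows of the partial wound at days 3 and 7.

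Hair follicle stem cell genes were checked because the reporter followed Sox9. Sox9 (2 and 2), Cd34 (2 and 2) and Krt15 (1 and 1) had equal counts, and Lgr5, a marker of the lower follicle, had 1 region at day 7 and none at day 80. Lhx2, a factor that follicle stem cells need, had none at day 7 and 4 at day 80, of which 4 were also in the partial wound of day 3, 3 in the list of hair follicle stem cells and 2 in each unwounded epidermal list. Nfatc1, a factor of stem cell quiescence, had 6 and 11. Over the list, 9 of 20 genes were lower, 5 higher and 6 equal. Of its 106 regions, 23 (21.7%) were held at day 7 alone and 25 (23.6%) at day 80 alone.

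In the Wnt pathway, which drives hair follicle growth, 14 of 32 genes were lower, 10 higher and 8 equal. Lef1, a factor that reads the signal, had 1 and 4 regions, and the R-spondin receptors Lgr4 and Lgr6, the latter a marker of stem cells above the bulge, had 4 and 7, and 1 and 3. The ligand Wnt7b had 10 and 7, the receptor antagonist Znrf3 5 and 2, and Tcf7 2 and none.

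Axon guidance and synaptic adhesion genes, many of which guide migrating cells outside the nervous system, had 75 of 273 regions at day 80 alone (27.5%) and 59 at day 7 alone (21.6%), with 12 of 29 genes lower, 11 higher and 6 equal. The receptor Robo1 had 11 and 17, its ligand gene Slit3 10 and 15, Sema5a 6 and 12 and the scaffold gene Dlg2 12 and 24. The ephrin receptor Ephb2 had 7 and 2 and the secreted cue Sema3c 11 and 8. Of the 75 day 80 alone regions, 55 were in the day 0 epidermis, beside 3726 of 6188 over all genes. The unwounded epidermis of day 80 held 47 (62.7%), near the 62.0% over all genes. The partial wound of day 3 held 12 (16.0%), beside 22.1% over all genes. Nuclear receptors, factors switched by hormones and lipids, held 40 regions at each day alone, with Ppard at 8 and 3, Pparg at 2 and none, Nr3c1, the glucocorticoid receptor, at 6 and 4, Esr1, the oestrogen receptor, at 5 and 8 and Esrrg at 2 and 5.

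**Figure D5:**
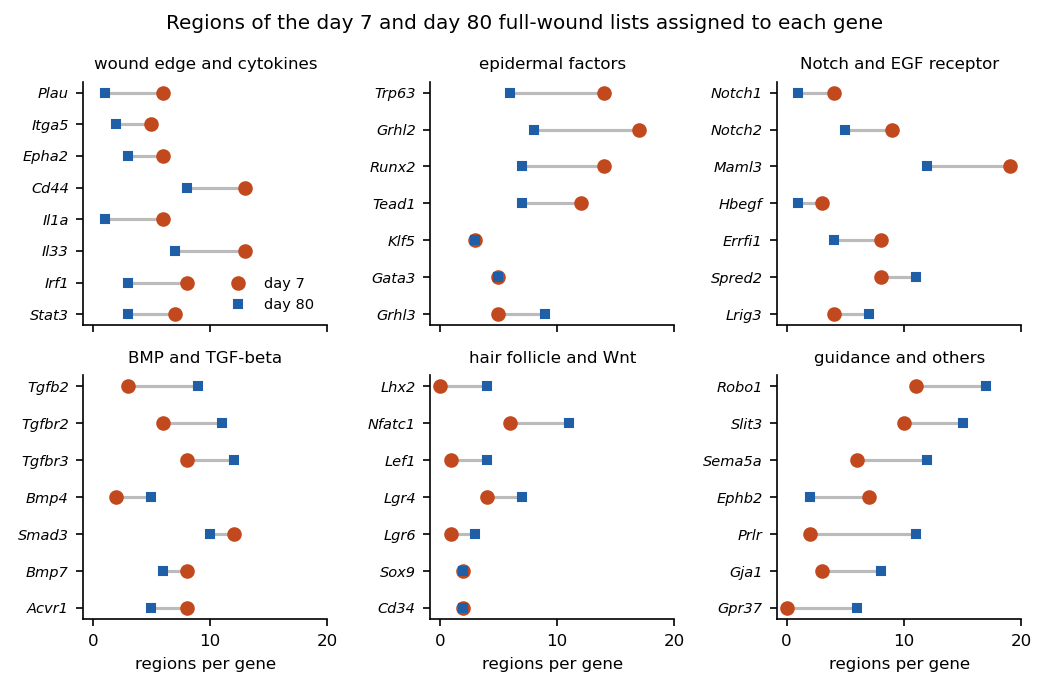
Number of regions assigned to each of 43 genes in the day 7 list (circles) and the day 80 list (squares), in 6 groups of genes. The wound edge and cytokine genes drawn, all picked from those with fewer regions at day 80, lie lower. Of all 38 inflammation genes with a region, 12 were higher at day 80, and these are not drawn. Tgfb2, Tgfbr2, Tgfbr3, Bmp4, Prlr, Gja1 and Gpr37 lie higher.

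Outside the lists, the genes spanning under 50 kb with the most regions fewer at day 80 included Gsr, which renews reduced glutathione (7 and 1), the protein C receptor gene Procr (5 and none) and Furin, a protease that matures growth factors (5 and none). Of the genes with a region, 24 (0.172%) had 4 or more regions at day 7 and none at day 80, and 18 (0.129%) the reverse. The 5 Procr regions had fold enrichments of 4.91 to 9.47, and 2 of them were held by the partial wound of day 3. Such short genes with the most regions more at day 80 included Anxa1, an anti-inflammatory lipid-binding protein (5 and 12), Gpr37 (none and 6), Gja1, the gap junction protein connexin 43 (3 and 8), and Dlk1 (none and 4). Ism1, singled out after its values were seen, had the most regions of any gene with none at day 7, 8 at day 80, of which 7 were in the day 0 epidermis. Among the genes with the most day 80 alone regions, Prlr, the prolactin receptor, through which hair growth is restrained, had 2 and 11. All 9 of its day 80 alone regions were in the unwounded epidermis of day 80 and 1 was in the partial wound of day 3. Zbtb20 had 6 and 15 and Syt1 5 and 14. Among those with the most day 7 alone regions, Pitpnc1 had 16 and 5, Grip1 14 and 4, and Macrod2, a gene of about 2 Mb, 38 and 37.

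Directions at the named genes depended on where the lists were cut. With both lists cut at the common lowest −log10 p, 30 of the 79 genes named with unequal counts turned their direction. Among them were Tgfb2, Bmp4, Prlr, Gja1 and Robo1, and all 30 had more regions at day 80 before the cut. A further 3 came to equal counts and 46 kept their direction. Over all genes with a region, 83.1% then had fewer and 0.2% more at day 80. With the upper 50% of each list by score, 50 of the 79 kept their direction, 19 came to equal counts, and 10 turned, genes with fewer regions at day 80 (Bach1, Fos, Bmp7, Krt6a and Macrod2) as well as genes with more. With both lists cut to equal length instead, 75 of the 79 kept it and 2 (Cd44 and Macrod2) turned.

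A promoter was taken as the 250 bases before a RefSeq start site (GRCm38.p6), of which 21262, at 17491 genes, were compared with the regions. Day 7 alone regions lay over 798 (3.75%), day 80 alone regions over 343 (1.61%) and shared regions over 9335. The AP-1 motif was searched as TGANTCA on both strands. It was in 7.64% of the promoters overlapped by day 7 alone regions (5.90% to 9.71%) and 4.08% of those overlapped by day 80 alone regions (2.25% to 6.75%). The motif was in 4.26% of the shared promoters (3.86% to 4.69%), 7.70% of those with no region and 6.13% of all. Shared promoters held a median of 18 CpG dinucleotides, against 15 and 12 in those of day 7 and day 80 alone and 3 in those with no region. The NF-kB motif, searched as GGGA and CC with 4 bases between them on both strands, was in 25.1%, 26.8% and 23.4% of the day 7 alone, day 80 alone and shared promoters and in 19.6% of all. A motif match describes letters only.

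Of 28 genes of the lists with a promoter in a day 7 alone region, 18 held neither motif there. The promoters of 4 of the others, all genes of wound repair, are printed to show an AP-1 or NF-kB match in the stretch that the day 80 list lacked. Capitals mark these motifs, and sequences run 5′ to 3′ along the gene. They belong to Il1a (chr2:129309973-129310222, minus strand), Mmp13, a collagenase (chr9:7272264-7272513, plus strand), Sprr1b, a cornified envelope precursor (chr3:92438780-92439029, minus strand), and Cxcl3, a neutrophil chemokine (chr5:90785851-90786100, plus strand). The 2 NF-kB matches of Cxcl3 overlap on opposite strands in the same capitalised stretch, so they mark a single site. The fold enrichments of these regions at day 7 were 10.4, 7.15, 4.79 and 9.02. The Cxcl3 region was also in both early partial-wound lists, and the Il1a region in these, in the partial wound of day 80 and in the unwounded epidermis of day 0. The Sprr1b region was also in the partial wound of day 7, and that of Mmp13 in no other list.
Il1a: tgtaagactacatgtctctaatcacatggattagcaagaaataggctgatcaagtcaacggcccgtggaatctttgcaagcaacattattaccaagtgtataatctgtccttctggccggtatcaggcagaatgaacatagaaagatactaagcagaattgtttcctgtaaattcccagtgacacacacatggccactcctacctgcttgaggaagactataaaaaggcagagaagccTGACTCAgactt
Mmp13: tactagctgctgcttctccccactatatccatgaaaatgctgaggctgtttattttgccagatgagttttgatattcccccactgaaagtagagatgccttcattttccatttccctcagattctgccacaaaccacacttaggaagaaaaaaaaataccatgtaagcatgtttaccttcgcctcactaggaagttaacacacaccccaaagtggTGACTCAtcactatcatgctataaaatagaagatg
Sprr1b: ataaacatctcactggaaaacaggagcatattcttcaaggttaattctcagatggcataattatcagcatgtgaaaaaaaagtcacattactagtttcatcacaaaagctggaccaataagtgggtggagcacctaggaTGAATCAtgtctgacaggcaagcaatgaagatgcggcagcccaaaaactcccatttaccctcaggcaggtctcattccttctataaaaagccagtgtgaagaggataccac
Cxcl3: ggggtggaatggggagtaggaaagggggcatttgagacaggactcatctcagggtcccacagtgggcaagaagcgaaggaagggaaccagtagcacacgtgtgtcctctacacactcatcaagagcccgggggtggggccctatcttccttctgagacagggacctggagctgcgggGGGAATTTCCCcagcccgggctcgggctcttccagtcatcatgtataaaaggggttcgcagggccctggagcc

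Of 11 genes of the lists with a promoter in a day 80 alone region, 9 held neither motif there and 2, Lfng and Postn, held an NF-kB match. A further 3 promoters, picked from the 9, are printed. Each was overlapped by a day 80 alone region, those of Lhx2 and Lgr6 in part. The choice of printed promoters is therefore no comparison of motifs between the days. They belong to Bmp4 (chr14:46390670-46390919, minus strand), Lhx2 (chr2:38351058-38351307, plus strand) and Lgr6 (chr1:135105277-135105526, minus strand), with fold enrichments of 7.03, 12.6 and 6.05. The Bmp4 region was in both unwounded epidermal lists, the Lhx2 region in all 6 other lists, and the Lgr6 region in the epidermis of day 80 and the hair follicle list. All 7 promoters were picked after their class was known.
Bmp4: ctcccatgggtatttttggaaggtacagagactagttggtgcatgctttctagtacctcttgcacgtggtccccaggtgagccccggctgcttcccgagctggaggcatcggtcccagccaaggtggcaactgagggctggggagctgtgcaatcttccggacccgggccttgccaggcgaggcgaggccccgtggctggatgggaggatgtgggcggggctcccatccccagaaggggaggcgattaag
Lhx2: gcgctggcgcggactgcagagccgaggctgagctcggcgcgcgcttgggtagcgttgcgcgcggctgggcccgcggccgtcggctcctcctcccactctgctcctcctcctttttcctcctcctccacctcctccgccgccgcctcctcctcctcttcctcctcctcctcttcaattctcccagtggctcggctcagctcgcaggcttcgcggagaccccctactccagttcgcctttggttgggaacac
Lgr6: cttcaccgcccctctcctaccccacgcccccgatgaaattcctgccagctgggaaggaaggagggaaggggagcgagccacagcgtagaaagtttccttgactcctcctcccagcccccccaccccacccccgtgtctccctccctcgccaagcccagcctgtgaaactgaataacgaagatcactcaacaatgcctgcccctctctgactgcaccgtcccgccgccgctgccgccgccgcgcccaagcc

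The labelled cell type was checked against its markers. All 9 epidermal stem cell markers had a region at both days (49 and 43 regions in all), and of the 9 hair follicle markers 8 had one at day 7 and 6 at day 80. Immune markers had a region in 5 of 9 at day 7 (7 regions) and 2 of 9 at day 80 (3 regions), with Itgax, Csf1r, Cd207 and Lyz2 at none on either day and Ptprc, Cd68 and Spi1 at none on day 80. Fibroblast markers had one in 3 of 9 and 5 of 9 (4 and 7 regions), with Col1a2, Col3a1, Lum and Twist2 at none on either day. Endothelial markers had one in 3 and 2 of 7, melanocyte markers in 5 of 7 at both days and muscle markers in 3 and 2 of 6. In the fuller list of 14 fibroblast genes, 9 had a region, and 6 of these had more at day 80 and 1 fewer. A region at such a gene does not show its expression, and the part of other cells in the results was not tested. Read depth is not used here, so weaker openness and fewer open cells cannot be told apart.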

How the data were processed

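Regions were built from the deposited narrowPeak lists of the day 7 and day 80 full-thickness groups. Bowtie, Picard, MACS2 2.1.1.20160309, bedtools 2.29.2 and mm10 are named per the submitters' processing notes, without roles. The sources used here do not say whether samples were pooled before calling. Every deposited peak carries a score, which is 10 times its −log10 q, and a fold enrichment. The fold enrichment (a ratio to background) and the −log10 of p and q are deposited values of the authors. Whether they can be compared between lists is not known. Fold enrichments of both days are printed side by side as description only. The lowest −log10 p of each list is given, and 1 setting cuts both full-wound lists at a common one. The authors kept 37.7% of the peak numbers at day 7 and 82.5% at day 80.

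Peaks were merged at 1 bp overlap with Python 3.11.15, pandas 2.3.3 and numpy 2.4.6, and the merging and counting were tested on simulated peaks. Genes are the protein-coding entries of a RefSeq table of GRCm38.p6, and start sites and promoters come from its sequence table, which covers 79.9% of them. Exact Clopper-Pearson intervals came from scipy 1.17.1. Depth is unknown, as no read counts are used here. Replicates could not be compared.

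Genes were named by rule: the genes with the most regions of each class, the largest differences among genes spanning under 50 kb, up to 4 members per list and direction, the genes nearest the strongest regions, and a fixed set. Fewer were printed than named. Of 494 genes in 22 lists, 3 were not in the table. Members, lists and rules were chosen with earlier results of these data known. Peaks of the day 0 epidermal list are named with a day 7 control tag, a mismatch left unresolved. Other settings are given in the closing section.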

Additional observations from a re-analysis of the deposited data

How the results depend on the processing

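The class counts stayed within 1.5 times of the reported ones with 500 bp windows on the summits, an overlap of 50% of the shorter peak, lists of equal length, peaks up to 200 bp apart merged, and without chromosomes X, Y and M (added after seeing the data). They moved with the threshold. With the upper 50% of each list, day 7 alone, day 80 alone and shared regions came to 6481, 4570 and 12125, and with the common lowest −log10 p to 29914, 183 and 7300. Requiring regions held alone to have a peak in the upper 50% of their list (added after seeing the data) left 2317 and 1403. Under these 3 settings, in that order, the unwounded epidermis of day 80 held 51.0%, 51.5% and 16.3% of the day 7 alone regions and 90.8%, 95.1% and 90.0% of the day 80 alone regions, and the partial wound of day 3 held 92.2%, 75.1% and 86.5%, and 60.9%, 30.1% and 27.3%. In the first of them a region held alone can have a peak in the lower 50% of the other list. In the second the cut is the lowest value of the day 7 list and takes out day 80 peaks only. A region then held at day 7 alone can have a day 80 peak below the cut. With lists of equal length these shares were 14.3% and 65.1% for day 7 alone and 25.7% for day 80 alone in the partial wound; with summit windows 58.0% of day 7 alone were in that list and 59.8% of day 80 alone in the epidermis.

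Of 79 named genes with unequal counts, 78 kept their direction with summit windows, 71 with a 10 kb and 78 with a 100 kb window, and 57 of the 61 with a start site in the table when the nearest start site was used. The day 80 minus day 7 difference turned to these values with the common lowest −log10 p: −1 for Krt14, Lfng, Lrig3, Tgfb2, Lef1, Lgr6, Esrrg, Krt10 and Prlr; −2 for Aim2, Bmp4, Lgr4 and Gja1; −3 for Nfkbiz, Tgfbr2 and Zbtb20; −4 for Grhl3, Nfatc1, Sema5a and Syt1; −5 for Fosl2, Atf3, Esr1 and Anxa1; −6 for Itga6 and Dlg2; −7 for Tgfbr3 and Robo1; −8 for Spred2 and Slit3. With alone regions in the upper 50%, 49 kept it and 28 came to 0. With the upper 50% of each list it turned to 3 for Bach1; 2 for Fos and Macrod2; 1 for Bmp7 and Krt6a; −1 for Atf3, Grhl3, Itga6, Lfng and Lgr4. With lists of equal length it turned to 2 for Macrod2; 1 for Cd44, and with alone regions in the upper 50% to 1 for Fos; −2 for Robo1. With the 10 kb window the summed difference of a list turned to 2 for Wnt signalling and proliferation and cell cycle; 1 for hypoxia and glycolysis. Why values moved was not tested beyond these settings. No replicate could be left out, since each group is 1 list. No paired analysis was possible because each group is 1 deposited list and no test was run. The unknown depth and the uneven thresholds limit every statement about a region missing from a list.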

Other observations

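The X chromosome stood apart from the autosomes. Of its 839 regions, 86 (10.3%) were held at day 7 alone and 318 (37.9%) at day 80 alone, whereas on the autosomes day 7 alone ranged from 24.3% to 31.8% (chromosome 11) and day 80 alone from 13.6% (chromosome 11) to 19.4%. The X chromosome carried 1.40% of the day 7 peaks and 2.27% of the day 80 peaks. This share was 2.45% and 2.41% in the unwounded epidermis of days 0 and 80, 2.14% in the hair follicle list and 1.60%, 1.83% and 1.99% in the partial-wound lists of days 3, 7 and 80. The labels do not give the sex of the animals, and its part was not tested. The class counts without this chromosome are given among the settings above.

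Of 1005 mouse hairpins in the RefSeq table (GRCm38.p6), 216 had a region within 2 kb, 42 of them (19.4%) at day 7 alone, 15 (6.94%) at day 80 alone and 3 at both kinds with none shared. Over all regions these classes held 27.1% and 17.4%. Those are shares of regions, whereas the hairpin shares count hairpins with no region of another class. The 2 kinds of share can be compared only loosely. A day 7 alone region (chr11:75172548-75173947, fold enrichment 4.92) covered both Mir212 and Mir132, and no other list held it. Their 3p mature strands share 1 seed, bases 2 to 8, given in capitals, the stretch by which a microRNA pairs with its targets. Mir203, whose product restrains basal cell renewal in the epidermis, had 2 day 80 alone regions, 1315 bp and 126 bp away, with fold enrichments of 5.09 and 3.58, both also in the unwounded epidermis of day 80, and 1 day 7 alone region 1868 bp away with 3.60. The sequences show the shared seed of the first pair and the different seed of the last. These genes were chosen after their values were seen.
mmu-miR-132-3p: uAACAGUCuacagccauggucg
mmu-miR-212-3p: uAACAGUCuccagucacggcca
mmu-miR-203-3p: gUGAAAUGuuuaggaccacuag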
